A study of Mus musculus with 8 samples.

Results

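The endothelin system consists of small secreted peptides, the receptors that bind them and the protease that makes the active peptide. The 6 genes described here are the ligands Edn1, Edn2 and Edn3, the receptors Ednra and Ednrb, and the endothelin-converting enzyme Ece1. They were taken by gene name, or by the gene of the probe's transcript, with every probe on the array. They have 7 of the 55681 probes, and 5 of the 6 genes passed the filter on dim probes and were among the 24291 genes tested. Endothelins are made as large precursors that are cut by furin-type proteases and then by a converting enzyme, and they act through receptors coupled to G proteins of the Gq family. In the mouse embryo, Edn1 from the epithelium, endothelium and mesodermal core of the pharyngeal arches acts on Ednra in neural crest cells, and loss of either gene disturbs the lower jaw, the arch arteries and the septation of the outflow tract. Edn3 and Ednrb act mainly in crest cells that become enteric neurons and melanocytes.

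RNA was measured in mouse cardiac outflow tracts, the vessel-like end of the embryonic heart, at stage E10.5. The first group was 4 pools of Raldh2-/- embryos (knockout pools 1, 2, 3 and 7), which lack the enzyme, now named Aldh1a2, that makes retinoic acid in the embryo. The second was 4 pools of wild type littermates (wild type pools 1, 2, 5 and 7), and each pool held 4 microdissected tracts. The dams of both groups ate food with 0.1 mg/g all-trans-retinoic acid from day 7.5 to day 8.5, so all embryos were exposed to it and no group without it was part of the comparison. Raldh2 was lost in the whole embryo and pooling hides the spread between embryos. Neither the strain nor the sex of the embryos was given in the labels. That separate pools came from separate litters is not stated, so the p-values measure only the spread between pools.

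The array of wild type pool 1 was unlike the rest. The median signal of its spots was 2023, while the other 7 had medians of 40.0 to 83.0, and it correlated with the others at a median r of 0.759, where they had 0.978 to 0.989. It called 87.6% of the probes that were dim on all the other 7 arrays well above background. Each result is therefore given over 8 arrays and over the 7 without that array. Knockout arrays filled row 1 of the slide and wild type arrays row 2, so that row and genotype cannot be told apart. Aldh1a2, the targeted gene, had log2 signals of 2.02, 2.01, 1.87 and 0.059 in knockout pools 1, 2, 3 and 7, against 1.92, 3.21, 2.98 and 3.65 in wild type pools 1, 2, 5 and 7. The array labelled wild type pool 1 thus lay among the knockout values. Whether the Aldh1a2 probe lies in the deleted part of the gene was not looked up, so it is a limited check of the labels. All values here are log2 of the processed signal relative to the 75th percentile of the same array, and a level of 1 probe is not set against that of another.

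The tissue label was checked against marker genes. All 9 cardiomyocyte markers, all 11 endothelial and endocardial markers and 4 of 5 smooth muscle markers were well above background on every array, and Myh11, a smooth muscle myosin, was so on 7. The same held for 6 of 7 markers of crest and arch mesenchyme, 5 of 7 of migratory crest and glia, 5 of 7 of pharyngeal and surface epithelium, 5 of 6 neuronal, 5 of 6 erythroid and 2 of 4 macrophage markers. Foxd3, Tfap2b and Pax1 were among those that did not pass the filter on dim probes. In bulk tissue like this, fewer cells of a type and less RNA per cell cannot be told apart.

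One stretch of the Edn1 promoter region and one array probe are printed because the results below refer to them. The Edn1 stretch lies at chr13:42301494-42301518 on the plus strand of GRCm38.p6 (RefSeq), from base 19 to base 43 after the annotated start. Its first capitals are the core letters of a hypoxia response element, ACGTG when read on the opposite strand, and its last capitals are TGACTAA, a variant of the AP-1 site that Fos and Jun proteins bind. In the human EDN1 gene, a hypoxia element, an AP-1 site and a GATA site are known to drive the promoter in endothelial cells. The Ednrb probe lies at base 1096 of its transcript, further upstream than the other Ednrb probe.
Edn1 promoter stretch: ctgCACGTtgcctgtgggTGACTAA
Ednrb upstream probe: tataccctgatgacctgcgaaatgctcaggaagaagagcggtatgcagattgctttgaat

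In a 300-base window around each RefSeq start, most of it before the start, the letters were searched on both strands. ACGTG was present in 19.6% of 32851 mouse promoters, TGACTAA in 2.35% and the GATA letters AGATAA in 11.2%. The Edn1 window held all 3, with AGATAA on the opposite strand at base 9 after the start. The Ece1 window held ACGTG on both strands, as overlapping matches at bases -90 and -89. The retinoid half-site AGGTCA was in 0 of the 9 windows of these genes, against 16.3% of all promoters, and a direct repeat of it spaced by 5 bases in 0 of 9, against 0.00913%. These are matches of letters in 1 short window and say nothing about binding.

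Edn1, the ligand that signals from arch epithelium and endothelium to crest cells, was higher in every knockout pool than in every wild type pool. The log2 signal was 0.685, 0.908, 0.977 and 1.00 in knockout pools 1, 2, 3 and 7, against -0.664, 0.521, 0.633 and 0.525 in wild type pools 1, 2, 5 and 7. The low value was that of wild type pool 1, and the other 3 wild type pools lay close together, just below the lowest knockout pool. The means were 0.89 ± 0.14 in the knockout and 0.25 ± 0.61 in the wild type (SD, n = 4 pools each), a difference of 0.64 (1.56-fold) with a limma standard error of 0.34. With limma's adjustment over all genes it did not pass (adjusted p = 0.735), and the two-sided exact permutation p was 0.0286, the smallest that 70 assignments can give.

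Without wild type pool 1 the Edn1 difference was smaller, and so was its error. The wild type mean was then 0.56 ± 0.06 (SD, n = 3), and the difference was 0.33 (1.26-fold) with a standard error of 0.11. The unadjusted limma p was 0.0185, the limma adjusted p was 0.400, and the exact permutation p over 35 assignments was 0.0571. Groups that do not overlap with the knockout higher were found for 3.95% of all genes over 8 arrays and for 6.55% over 7. An unadjusted p under 0.05 with the knockout higher was found for 0.659% of genes over 8 arrays and for 6.24% over 7. No gene passed the adjusted threshold of 0.05 in either set of arrays (0% of 24291 and of 23670).

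The separation of the Edn1 groups was narrow and depended on the scaling. The Edn1 probe (chr13:42403101-42403160, plus strand, mm9) is spotted 10 times on each array. The SD between those spots was 0.0646 to 0.118, and the standard error of an array's mean over its spots was 0.0204 to 0.0374. The gap between the lowest knockout pool (pool 1) and the highest wild type pool (pool 5) was 0.0526, with a standard error over spots of 0.0372. That error covers the spots of an array and leaves out the spread between pools. No spot of any of these probes was flagged or saturated.

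**Figure D1:**
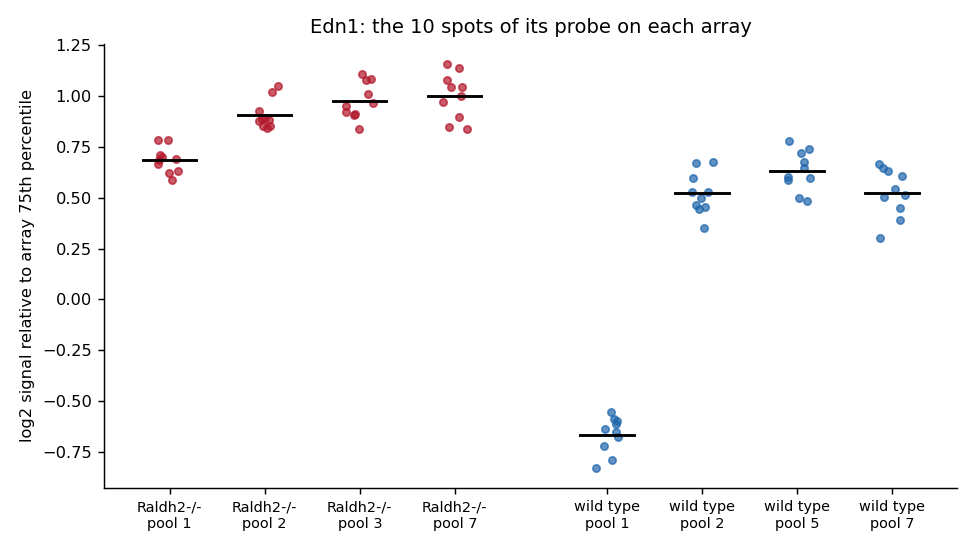
Each point is 1 of the 10 Edn1 spots on an array, as log2 signal over that array's 75th percentile, with knockout pools in red at the left, wild type pools in blue at the right and a line at each array's mean. The means of the knockout arrays run from 0.685 to 1.00, against 0.521 to 0.633 for wild type pools 2, 5 and 7 and -0.664 for wild type pool 1.

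With quantile normalization or with normexp background correction, the knockout Edn1 values also lay above all wild type values. With each array scaled on its median they overlapped: knockout pool 7 was then at 4.41, against 4.51, 4.73 and 4.57 in wild type pools 2, 5 and 7. The difference was 0.13 over the 7 arrays under that scaling. The same scaling moved the median difference of all genes to -0.15, against 0.05 with the 75th percentile. Relative to the median of all genes the Edn1 difference over the 7 arrays was 0.28 in both. That equality is fixed by arithmetic, since each scaling subtracts a constant from all genes of an array.

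Endothelial and epithelial markers are given beside Edn1, since both tissues are known sources of it. The mean of the 11 endothelial and endocardial markers was 0.88 to 1.43 in knockout pools, against 1.04 to 1.17 in wild type pools 2, 5 and 7, and -0.14 on the array of wild type pool 1. One of the 11, the endothelial receptor Tie1, did not overlap between groups, with 1.69 to 2.14 in knockout pools, against -0.27 to 1.66 in wild type pools; the share of all genes so placed was 3.95%. Pecam1 was at 0.34 to 0.80 in knockout pools, against 0.49 to 0.61 in wild type pools. The mean of the 6 epithelial markers that passed the filter was -0.74 to 1.38 in knockout pools, against -0.65 to 1.27 in wild type pools. The part of these markers in the Edn1 values was not tested.

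Edn2, a ligand that binds the same receptors as Edn1 and is known from the gut and ovary, had a weak and scattered signal. It was -5.07, -5.00, -4.54 and -4.10 in knockout pools 1, 2, 3 and 7, against 0.282, -3.90, -4.89 and -1.85 in wild type pools 1, 2, 5 and 7. The knockout pools were low and close together, while wild type pools 1 and 7 were high and wild type pool 5 lay among the knockout values, so that the groups overlapped. The difference was -2.09 (4.25-fold) with a standard error of 0.99 (limma adjusted p = 0.735, exact permutation p = 0.114, n = 4 each).

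Over the 7 arrays the Edn2 difference was -1.13 (2.19-fold) with a standard error of 0.67, a limma adjusted p of 0.567 and an exact permutation p of 0.171. The probe (chr4:119839682-119839741, plus strand, mm9) was well above background on all 8 arrays. In the knockout pools it lay 0.39 to 1.15 log2 units above the lowest signal so called on the same array, against 1.06 to 4.05 in the wild type pools. The mean over wild type pools rests on pools 1 and 7.

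Edn3, the ligand of enteric and pigment cell crest, was not well above background in any knockout pool or in wild type pools 2, 5 and 7. Its signal was -6.37, -6.76, -5.97 and -4.87 in knockout pools 1, 2, 3 and 7, against -0.601, -6.23, -6.74 and -6.66 in wild type pools 1, 2, 5 and 7. The 1 array on which it was called above background was the one that stood apart. Edn3 (probe at chr2:174608971-174609030, plus strand, mm9) therefore did not pass the filter and has neither a test nor a fold.

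Ednra, the receptor through which Edn1 acts on crest-derived mesenchyme and smooth muscle, had a similar signal in 7 of the 8 pools. It was 2.37, 2.43, 2.38 and 2.59 in knockout pools 1, 2, 3 and 7, against 0.507, 2.17, 2.38 and 2.60 in wild type pools 1, 2, 5 and 7. The groups overlapped, and wild type pool 1 alone was low. The difference was 0.53 with a standard error of 0.46 over 8 arrays (limma adjusted p = 0.735, exact permutation p = 0.371, n = 4 each). Over the 7 arrays it was 0.060 (1.04-fold) with a standard error of 0.13, a limma adjusted p of 0.875 and an exact permutation p of 0.743. The Ednra probe lies at chr8:80186985-80187044 on the minus strand of mm9.

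Markers of the tissue in which Ednra acts are given beside it. The mean of the 6 crest and arch mesenchyme markers that passed the filter was 1.68 to 2.08 in knockout pools, against 1.09 to 1.93 in wild type pools 2, 5 and 7, and -0.06 on the array of wild type pool 1. Dlx2, described below, is 1 of the 6, at 0.03 to 0.96 in knockout pools, against -2.34 to -0.76 in wild type pools 2, 5 and 7. Over the 7 arrays 3 of the 6 had a positive difference and 3 a negative one, with a median of -0.003. The mean of the 5 smooth muscle markers was 3.87 to 4.00 in knockout pools, against 3.92 to 4.10 in wild type pools 2, 5 and 7, and 2.83 on the array of wild type pool 1. Like Ednra, both means were lowest in wild type pool 1, but so were the means of the cardiomyocyte, endothelial and erythroid markers. The means of the migratory crest, epithelial, neuronal and macrophage markers were not lowest there. The cardiomyocyte mean was 4.92 on that array, against 6.81 to 7.64 in wild type pools 2, 5 and 7. The macrophage mean was -0.47, against -3.38 to -2.02. That array was unlike the rest across its spots, so these means cannot be read as a difference in cell types.

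Ednrb, the receptor of crest cells, endothelium and glia, has 2 probes on the array, and they differed in direction. The downstream probe (chr14:104214484-104214543, minus strand, mm9) had the higher mean and stands for the gene. Its signal was -0.377, -0.426, 0.234 and -0.101 in knockout pools 1, 2, 3 and 7, against 0.203, -0.146, -0.319 and 0.596 in wild type pools 1, 2, 5 and 7. The groups overlapped widely, with wild type pool 7 highest. The difference was -0.25 with a standard error of 0.31 (limma adjusted p = 0.735, exact permutation p = 0.343, n = 4 each), and -0.21 with a standard error of 0.26 over the 7 arrays (limma adjusted p = 0.784, exact permutation p = 0.486).

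The upstream Ednrb probe, printed above (chr14:104220870-104220929, minus strand, mm9), had its own pattern. It gave -0.531, -0.494, -0.327 and -0.264 in knockout pools 1, 2, 3 and 7, against -0.677, -0.757, -0.750 and 0.122 in wild type pools 1, 2, 5 and 7. Every knockout pool lay above wild type pools 1, 2 and 5 and below wild type pool 7. The difference was 0.11 over 8 arrays (exact permutation p = 0.657, n = 4 each) and 0.058 over 7 (exact permutation p = 0.886). Pearson's r between the probes was 0.660 over 8 arrays and 0.808 over 7, and both were highest among wild type pools in pool 7. The mean of the 5 migratory crest and glia markers that passed the filter was -2.42 to -2.19 in knockout pools, against -2.93 to -1.53 in wild type pools.

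Ece1, the protease that turns the endothelin precursor into active peptide, had a slightly lower mean in knockout pools, within the spread between pools. Its signal was 0.230, -0.076, 0.405 and -0.114 in knockout pools 1, 2, 3 and 7, against 0.393, 0.207, 0.624 and 0.410 in wild type pools 1, 2, 5 and 7. Knockout pools 2 and 7 lay below all wild type pools, and the other two lay within their range. Wild type pool 1 did not stand apart for this gene in these values, but this depended on the scaling. With each array scaled on its median, Ece1 was at 1.45 in wild type pool 1, against 4.19, 4.73 and 4.45 in wild type pools 2, 5 and 7. With the main scaling, the means were 0.11 ± 0.25 in the knockout and 0.41 ± 0.17 in the wild type (SD, n = 4 pools each). The difference was -0.30 (1.23-fold) with a standard error of 0.25 over 8 arrays and 0.17 over 7. The limma adjusted p was 0.735 over 8 arrays and 0.550 over 7, and the exact permutation p was 0.171 in both. The Ece1 probe lies at chr4:137519606-137519665 on the plus strand of mm9.

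**Figure D2:**
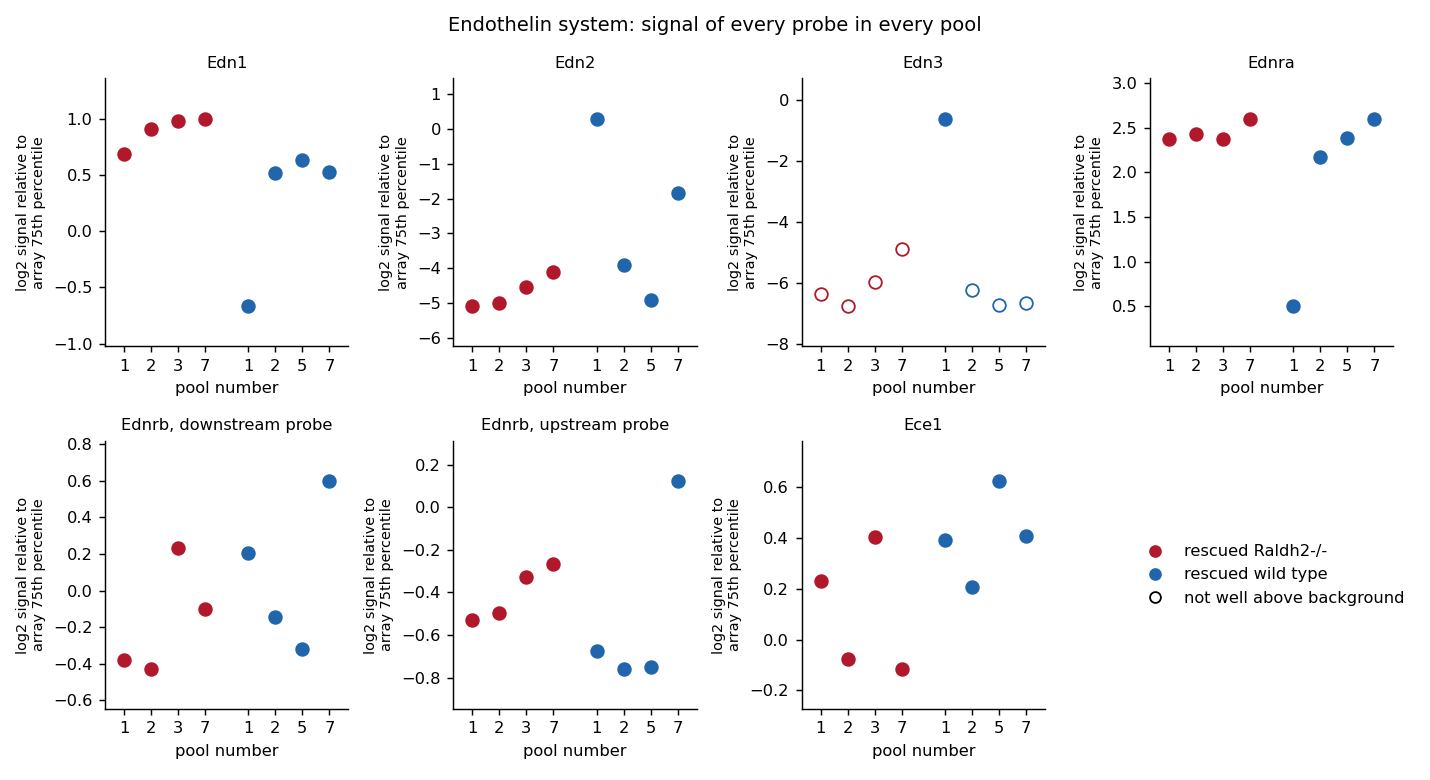
Each panel shows 1 probe, with log2 signal over that array's 75th percentile on the vertical axis and the pool number on the horizontal axis, knockout pools in red at the left and wild type pools in blue at the right; open points were not well above background. Edn1 is the gene whose groups do not overlap, and Edn3 is open in 7 of 8 pools.

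Of the 5 genes tested, 2 had a positive difference (Edn1 and Ednra) and 3 a negative one (Edn2, Ednrb and Ece1), and 0 passed. Of the 5, 1 had groups that do not overlap, against 5.49% of all genes in either direction over 8 arrays and 11.4% over 7. None of the 3 negative ones did, where 1.54% of genes over 8 arrays and 4.88% over 7 had every knockout pool below every wild type pool. None of them had an unadjusted p under 0.05 either, against 1.12% of genes lower over 8 arrays and 4.35% over 7. The difference was above 0 for 57.1% of all genes over 8 arrays and for 59.3% over 7, with medians of 0.13 and 0.05. Scaling on the array median moved the median of all genes to 0.67 over 8 arrays. Under it Ednrb was at 0.29 and Ece1 at 0.24, which turned their sign. Relative to the median of all genes, the differences over 8 arrays were 0.51 for Edn1, -2.22 for Edn2, 0.40 for Ednra, -0.38 for Ednrb and -0.43 for Ece1. These are the same under both scalings by arithmetic. A difference that did not pass does not show that a gene was equal in the groups.

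**Figure D3:**
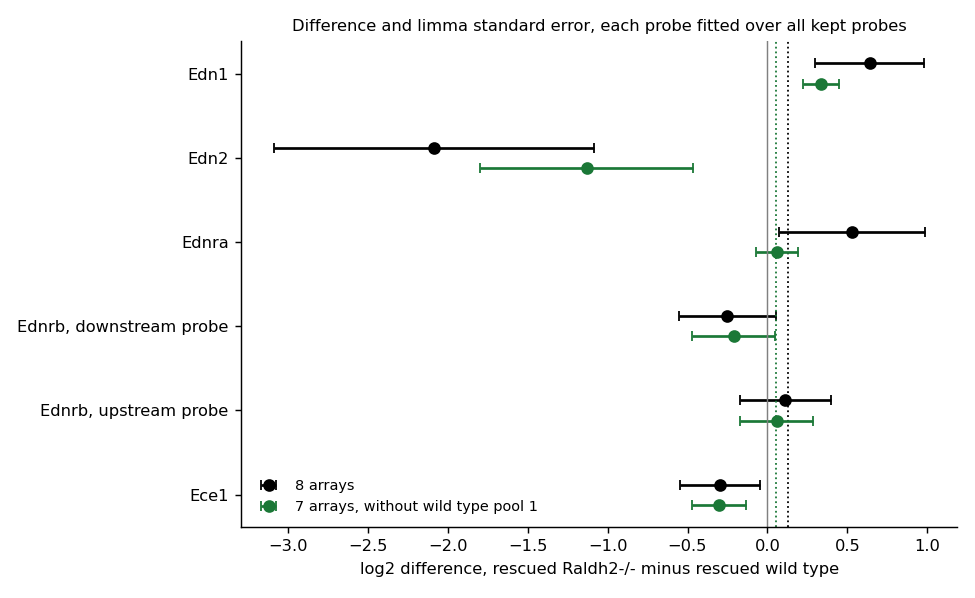
The log2 difference (knockout minus wild type) of each tested probe is shown as a point with its limma standard error as a bar, in black over 8 arrays and in green over the 7 without wild type pool 1; dotted lines mark the median of all genes at 0.13 and 0.05. Edn1 lies right of both lines, and the Edn2 bars are the widest.

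Genes that make or break down the peptides did not pass the test. Over 8 arrays 6 of the 10 had a positive difference and 4 a negative one, with a median of 0.12. Over 7 arrays these were 4 and 6, with a median of -0.05. Of all genes 57.1% were positive over 8 arrays (median 0.13) and 59.3% over 7 (median 0.05). Furin, which makes the first cut of the precursor, was at 2.99 to 3.11 in knockout pools, against 1.26, 2.85, 3.13 and 2.96 in wild type pools 1, 2, 5 and 7. Outside wild type pool 1 its values overlapped, with a difference of 0.05 over 7 arrays. Ece2, a second converting enzyme, had a difference of -0.65 over 8 arrays and -0.14 over 7.

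The remaining enzymes named here were those with the smallest unadjusted p in their group over 8 arrays. Kel, an erythrocyte surface protease that can cut the Edn3 precursor, was at 0.99 to 2.26 in knockout pools, against -1.39 to 2.01 in wild type pools, a difference of 1.59 with a standard error of 0.67 (limma adjusted p = 0.735) and of 1.12 over 7 arrays (limma adjusted p = 0.538). Kel moved with the mean of the 6 erythroid markers, which was 4.71 to 5.89 in knockout pools, against 2.40 to 5.83 in wild type pools, and its part in the Kel values was not tested. The neprilysin-like protease Mmel1 was at -0.35 over 8 arrays and -0.32 over 7. Over 7 arrays the smallest unadjusted p was that of Ctsa, a lysosomal carboxypeptidase known to break down Edn1 and named after its values were seen. Its difference was -0.49 over 7 arrays (limma adjusted p = 0.433) and -0.09 over 8. Over the 7 arrays every knockout pool was below every wild type pool for Ctsa, 1 of the 10 genes, as for 4.88% of all genes.

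The G proteins, phospholipases and regulators below the receptors were measured for 23 of 24 genes, and 0 passed. Over 8 arrays 20 were positive and 3 negative, with a median of 0.40, where 57.1% of all genes were positive (median 0.13). Over 7 arrays 12 were positive and 11 negative, with a median of 0.02, where 59.3% of all genes were positive (median 0.05). The list mean was 1.48 to 1.54 in knockout pools, against 1.46 to 1.51 in wild type pools 2, 5 and 7, and -0.0015 on the array of wild type pool 1. Gnaq, the G protein that couples both receptors to phospholipase C, was at 1.47 to 1.56 in knockout pools, against -0.70, 1.47, 1.45 and 1.44 in wild type pools 1, 2, 5 and 7. Its groups did not overlap, but knockout pool 3, at 1.474, was barely above wild type pool 2, at 1.468. The difference of the Gnaq means over the 7 arrays was 0.06 with a standard error of 0.08. Its close relative Gna11 had a difference of 0.65 over 8 arrays and 0.26 over 7.

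Of the same list, Rgs2, Rgs5 and Grk2 also had every knockout pool above every wild type pool. Rgs2, which speeds the switching off of Gq, was at 2.84, 3.35, 2.94 and 3.85 in knockout pools 1, 2, 3 and 7, against 0.47, 2.64, 2.66 and 1.91 in wild type pools 1, 2, 5 and 7. The difference was 1.32 with a standard error of 0.52 (limma adjusted p = 0.735), and 0.84 with a standard error of 0.30 over 7 arrays (limma adjusted p = 0.418). Rgs5, a related regulator and pericyte gene, had 0.97 over 8 arrays and 0.57 over 7, and the receptor kinase Grk2 0.63 and 0.15. Plcb4, the phospholipase known from mouse and human genetics to act in the Edn1 pathway of the arches, was at -0.55 over 8 arrays and -0.45 over 7, with overlapping groups. Beside these 4 of 23 genes, 3.95% of all genes had the knockout pools above all wild type pools.

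Of a list of 16 arch and crest genes, 14 were measured, and 0 passed the test. The list was put together around genes that depend on Edn1 in the mouse mandibular arch. Not every gene in it is known to do so, and its values are no direct measure of Edn1 signalling. Over 8 arrays 9 were positive and 5 negative, with a median of 0.45, where 57.1% of all genes were positive. Over 7 arrays 9 of 13 were positive and 4 negative, with a median of 0.36, where 59.3% of all genes were positive. Cell type markers also moved over the same 7 arrays, none past the test. Of the cardiomyocyte markers 9 of 9 were negative (median -0.18). Positive were 6 of 6 erythroid (median 0.64), 4 of 4 macrophage (0.45) and 5 of 6 neuronal markers (0.47). The same held for 4 of 5 migratory crest (0.06), 6 of 11 endothelial (0.10), 3 of 6 epithelial (0.36) and 2 of 5 smooth muscle markers (-0.12). Crest and arch mesenchyme markers, Dlx2 among them, were 3 positive and 3 negative (median -0.003). The part of these markers in the values of the arch and crest list was not tested. Dlx2, a homeobox gene of arch mesenchyme, was at 0.50, 0.17, 0.03 and 0.96 in knockout pools 1, 2, 3 and 7, against -2.57, -0.76, -1.01 and -2.34 in wild type pools 1, 2, 5 and 7. Its groups did not overlap, as for 3.95% of all genes over 8 arrays. The Dlx2 difference was 2.08 with a standard error of 0.47 (limma adjusted p = 0.735), and 1.78 over 7 arrays with a standard error of 0.40 (limma adjusted p = 0.345). Gsc, a homeobox gene of the lower jaw named after its values were seen, had the highest difference of the list. It was 2.44 over 8 arrays (standard error 1.31) and 2.98 over 7 (standard error 1.45, limma adjusted p = 0.508). Wild type pools 5 and 7 were low at -3.85 and -6.84, while wild type pool 2, at 0.18, lay above every knockout pool. Gsc was well above background on 7 of 8 arrays. Its value in wild type pool 7 was below the lowest signal so called on that array, -4.71. Pitx1, another homeobox gene of the lower jaw, was at -2.35 to -0.91 in knockout pools, against -3.27 to -1.94 in wild type pools, a difference of 1.40 over 8 arrays and 1.69 over 7 (limma adjusted p = 0.328). Its groups overlapped only through wild type pool 1. Over 7 arrays Dlx1, Dlx2 and Pitx1 did not overlap and were higher in the knockout, 3 of 13 genes, against 6.55% of all genes. Dlx1, named after its values were seen, was well above background on 7 of 8 arrays. In wild type pool 7 it was at -5.30, below the lowest signal so called on that array, -4.71. Its highest value was -0.92, in wild type pool 1. The Dlx1 difference was 0.94 over 8 arrays and 1.90 over 7 (limma adjusted p = 0.327).

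The members of this group that the Edn1 pathway is best known for gave a mixed picture. Hand2, the basic helix-loop-helix factor of the ventral arch that is also a gene of the outflow tract itself, was at 3.60, 3.86, 3.74 and 4.12 in knockout pools 1, 2, 3 and 7, against 1.30, 3.42, 3.77 and 3.22 in wild type pools 1, 2, 5 and 7. Wild type pool 5 lay inside the knockout range, and the difference was 0.90 over 8 arrays and 0.36 over 7 (limma adjusted p = 0.510). Dlx5, which stands between Edn1 and Hand2 in the arch, was at -3.92, -3.86, -3.89 and -1.74 in knockout pools 1, 2, 3 and 7, against 0.21, -3.72, -4.65 and -6.66 in wild type pools 1, 2, 5 and 7, with a difference of 0.35 over 8 arrays and 1.66 over 7. Dlx5 was well above background on 7 of 8 arrays, and its value in wild type pool 7 was below the lowest signal so called there, -4.71. Dlx6, its neighbour in the genome, was well above background on 5 of 8 arrays, with -1.21 in knockout pool 7 and 1.73 in wild type pool 1 as its highest values, a difference of -0.88 over 8 arrays, and it did not pass the filter over 7. Dlx3 had 0.25 over 8 arrays and -0.01 over 7. Mef2c, a factor upstream of the Dlx genes in crest and a muscle gene in the heart, had -0.31 and -0.28.

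Factors known to regulate endothelin genes were measured for 17 of 17, and 0 passed. Over 8 arrays 12 were positive and 5 negative, with a median of 0.48; over 7 arrays 6 were positive and 11 negative, with a median of -0.03. Epas1, the hypoxia factor of endothelium whose family binds the ACGTG core shown above, was at 2.70, 3.07, 2.75 and 2.86 in knockout pools 1, 2, 3 and 7, against 0.57, 2.63, 2.40 and 2.54 in wild type pools 1, 2, 5 and 7. Its groups did not overlap, as for 3.95% of all genes, with a difference of 0.82 over 8 arrays and 0.33 over 7 and a standard error of 0.12 over 7 (limma adjusted p = 0.434). Gata2, a GATA factor of endothelium, was at -0.14, 0.32, 0.47 and 0.58 in knockout pools 1, 2, 3 and 7, against -1.78, -0.65, 0.006 and -0.44 in wild type pools 1, 2, 5 and 7, a difference of 1.02 and of 0.67 over 7 arrays (limma adjusted p = 0.402). Fos, part of the AP-1 factor, ran the other way, with -1.64, -1.37, -1.58 and -1.50 in knockout pools 1, 2, 3 and 7, against -1.38, -0.07, -1.62 and 0.61 in wild type pools 1, 2, 5 and 7. The Fos difference was -0.91 over 8 arrays and -1.16 over 7 (limma adjusted p = 0.460), and the high values were those of wild type pools 2 and 7. Named after their values were seen, Hif1a, a hypoxia factor related to Epas1, had 0.52 over 8 arrays and -0.01 over 7, and the endothelial growth factor Vegfa had -0.76 over 8 arrays and -1.11 over 7 (limma adjusted p = 0.364). For Vegfa every knockout pool was below wild type pools 2, 5 and 7, as for 4.88% of all genes. Knockout pool 3, at 3.078, was barely below wild type pool 5, at 3.079, and the high values were those of wild type pools 2 and 7, at 4.21 and 4.23.

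**Figure D4:**
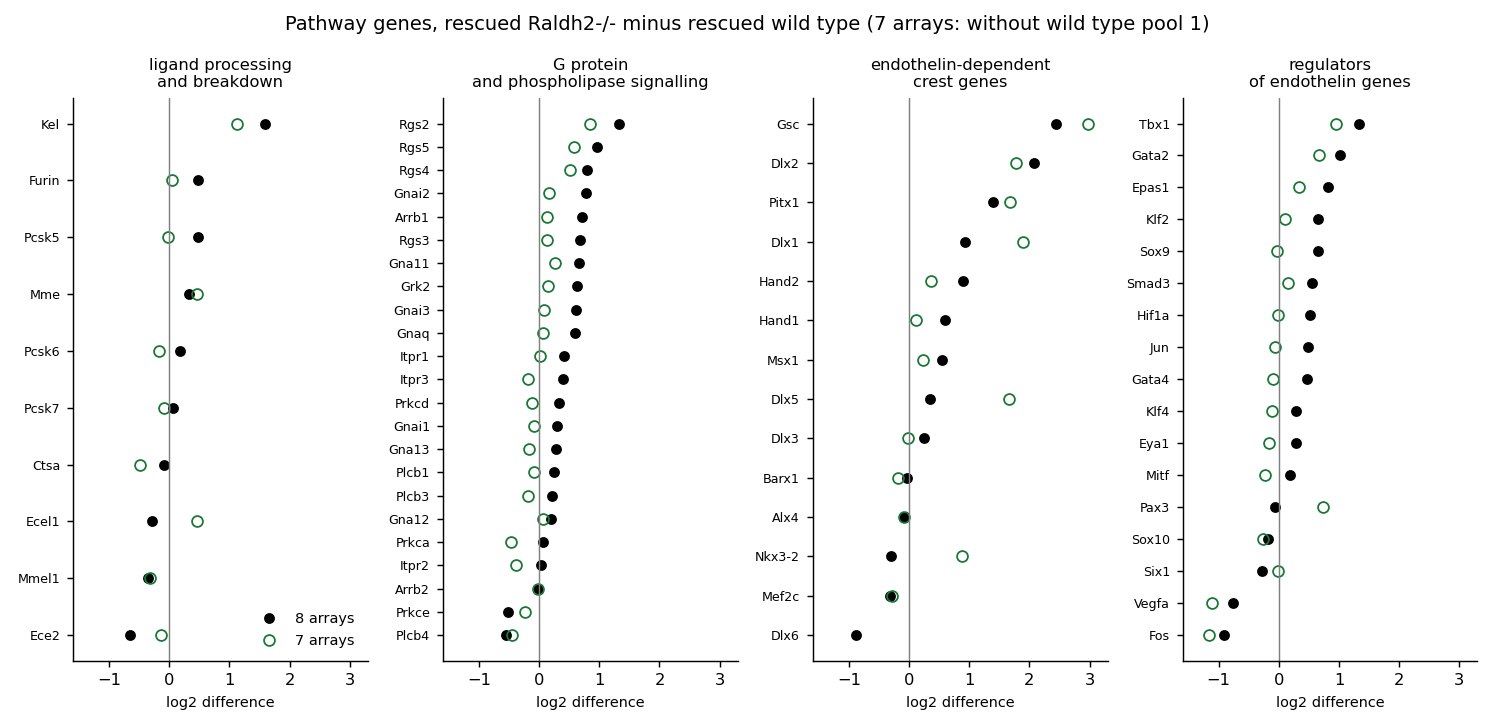
Each row is 1 measured gene of the 4 pathway groups, with its log2 difference (knockout minus wild type) over 8 arrays as a filled point and over the 7 arrays without wild type pool 1 as an open one. In the G protein and regulator groups most open points lie left of the filled ones, and the medians are 0.02 and -0.03 for the open points, against 0.40 and 0.48 for the filled ones; Dlx2, Pitx1, Gsc and Kel lie above 1 in both.

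Genes whose pattern over the 7 arrays was most like that of a member were found by Pearson's r among 14766 genes well above background on every array. For Edn1 these included Sel1l3 (r = 0.975) and Trmt1l (r = 0.969), and 54 genes had an r above 0.9. Over all 8 arrays Sel1l3 had r = 0.0842 and Trmt1l r = 0.995. For Edn2 they were Dyrk1b, Mcoln1 and Clasrp (r = 0.980 to 0.977 over 7 arrays), for Ednra Mrpl1 and Med19 among others (0.993 and 0.973), for Ednrb Lekr1, AF067063 and Abca3 (0.966 to 0.954), and for Ece1 Litaf, Vegfd and Npy1r (0.990 to 0.969). Over 8 arrays most of these values changed: r was 0.952, -0.638 and -0.701 for Dyrk1b, Mcoln1 and Clasrp, 0.167 and 0.684 for Mrpl1 and Med19, 0.653, 0.578 and 0.120 for Lekr1, AF067063 and Abca3, and 0.0058, 0.742 and 0.753 for Litaf, Vegfd and Npy1r. With 7 points that share their arrays and scaling, these values only describe likeness.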

How the data were processed

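RNA of 8 pools was hybridised to 1 slide of one-colour Agilent arrays (design 028005). Per the labels' protocols, RNA was column-extracted, had an integrity number above 8, and 50 ng went into the Cy3 labelling. The deposited files are 1 scanner output per array (Feature Extraction 10.7.3.1) and a value matrix. The authors' deposited intensity values are linear, had their background subtracted and were detrended within each array, per the file headers, and are not normalized between arrays. The matrix differed from the processed signal by at most 0.497%.

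From these files, log2 processed signal minus the log2 of each array's 75th percentile over 59305 spots that are not controls was computed, and unflagged spots of a probe were averaged. A probe needed 3 arrays of the same group well above background to be kept (33404 probes, after 34 were lost to flags), and the kept probe of highest mean stood for its gene. Of 55681 probes, 26056 took their gene through their accession and the others kept the name in the file. Groups were compared in R 4.3.3 with limma 3.58.1 (a two-sided moderated test from lmFit and eBayes, Benjamini-Hochberg over all genes, threshold 0.05), tested on simulated data, and each member also with a two-sided exact permutation test over pools. Python 3.11.15 with pandas 2.3.3 was used for the rest. Precision is limited by the number of arrays.

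Named were all members, Aldh1a2, the pathway genes whose groups did not overlap over 8 arrays (where a list had under 2 of them, the 2 of smallest unadjusted p), Gnaq, Gna11, Plcb4, Dlx3, Dlx5, Dlx6, Hand2, Mef2c, Ece2, Furin and the 3 genes most like each member; some genes that this rule names are not reported here, and marker genes named beside them were chosen after their values were seen. The members and lists were chosen with earlier results of these data known. Alternatives were other scalings, background correction, filters, probes, variance moderation, weights, blocks and leaving out each pool.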

Additional observations from a re-analysis of the deposited data

Results flagged for a closer look

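In 64 groups of 4 pools that were checked, 14 times 1 pool lay far from the other 3 for the spread of its group. Of these, 7 were wild type pool 1 and 6 were knockout pool 7. Chance gives about 1 in 20 for independent groups that were not chosen by their values. Here Gnaq, Rgs5, Grk2 and Epas1 were named because their knockout and wild type pools did not overlap. The mean of the G protein and phospholipase list includes Gnaq and Grk2, and all groups come from the same arrays. The count of 14 therefore cannot be judged against that rate. In wild type pool 1 the log2 signal was -0.664 for Edn1, -0.601 for Edn3, 1.26 for Furin, -0.700 for Gnaq, 0.628 for Grk2 and 0.570 for Epas1, and the mean of the G protein and phospholipase list was -0.00152. In knockout pool 7 it was 0.0591 for Aldh1a2, below the other 3 knockout pools, and 2.30 for Gna11, also below them. It was 2.68 for Rgs5, 2.85 for Grk2, -1.74 for Dlx5 and -1.21 for Dlx6 in the same pool, above the other 3. In wild type pool 7 the upstream Ednrb probe was at 0.122, above the other wild type pools. Grk2 was thus apart in both groups.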

How the results depend on the processing

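Over the 24 alternatives run for Edn1 the difference kept its sign, from 0.13 to 1.18, with limma adjusted p-values of 0.400 to 0.856, and Edn2 kept its sign from -2.90 to -1.13. Signs turned for Ednrb (0.29, limma adjusted p = 0.849) and Ece1 (0.24, limma adjusted p = 0.874) with array median scaling, for Ednrb with the upstream probe alone (0.11), and for Ednra (-0.15, limma adjusted p = 0.833) with array median scaling over the 7 arrays; that scaling moved all genes by the shifts given above. No member passed under any alternative. Leaving out 1 pool at a time gave 0.33 to 0.77 for Edn1, -2.85 to -1.13 for Edn2, 0.060 to 0.76 for Ednra, -0.39 to -0.080 for Ednrb and -0.40 to -0.22 for Ece1, and the values nearest 0 of Edn1, Edn2 and Ednra were those without wild type pool 1, and that of Ednrb was the one without wild type pool 7. Of all genes, 0 passed in limma over 8 arrays (433 with an unadjusted p under 0.05). With array weights 8 passed (1 higher, 7 lower), and with array median scaling over the 7 arrays 22 passed (4 higher, 18 lower); the cause was not tested. The second setting, and the quantile, block and weight settings over 7 arrays, were chosen after seeing the data. The groups share pool numbers 1, 2 and 7, and the labels give no pairing. The deviations of same-numbered pools from their group means correlated at -0.15, 0.32 and -0.41. Those means include wild type pool 1, so these few values cannot show whether the numbers pair the pools. With the replicate block the Edn1 difference was 0.74, Edn2 -2.90, Ednra 0.71, Ednrb -0.52 and Ece1 -0.32, and 0 genes passed. For Edn3, at background on 7 arrays, the fit with no filter gave -0.94 (limma adjusted p = 0.757), while the means over the 7 arrays differed by 0.55, so its sign rests on wild type pool 1. Signal near background limits Edn2 and Edn3.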
